A study of Mus musculus with 3 samples.

Results

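Surface proteins that mark epithelial cells and mammary progenitor cells were followed here through 9 genes, Epcam, Mal2, Muc1, Prom1, Cd24a, Cd44, Thy1, Kit and Procr. They are 9 of the 28653 gene or transcript names tested, and every non-control probe with one of their names, or with a RefSeq accession of one of them, was taken, which gave 14 of the 41174 probes on the arrays. Epcam is listed under its older name Tacstd1 and was recognised by accession NM_008532. Values came from 3 Agilent mouse arrays hybridised with RNA of EpH4-PR, which is the mammary epithelial cell line EpH4 of the mouse carrying a stable transgene for the progesterone receptor isoform PR-A. Cells reached about 75% confluence in DMEM with 10% FBS, the methods add G418 to keep the plasmid, and the labels name no hormone treatment. Selected clones were used, and whether EpH4-PR is a single clone or a pool of clones is not given in the sources used here. On every array EpH4-PR RNA was labelled with Cy5 and a commercial mouse reference RNA (Stratagene mouse standard) with Cy3. Each value is therefore a level relative to that reference and not an effect of the receptor. The dyes were not exchanged on any array, so dye bias of a probe cannot be told apart from a difference in level. Arrays of the vector control line, EpH4-EV, were not analysed here.

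These proteins are best known as handles for sorting cells. EpCAM is a homophilic adhesion molecule of epithelia, MUC1 is a heavily glycosylated mucin of the apical membrane, prominin 1 (CD133) sits on membrane protrusions, and MAL2 is a raft protein required for transport to the apical surface. CD24 is a small GPI-anchored sialoglycoprotein and CD44 is the main receptor for hyaluronan, and both are used as sorting markers of mammary cell populations. THY1 (CD90) is a GPI-anchored protein of fibroblasts, T cells and neurons that is also found on basal mammary cells, KIT is the receptor for stem cell factor and marks luminal progenitors, and PROCR, the endothelial protein C receptor, marks endothelium and a population of mammary stem cells.

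Each array carried 43790 spots. The median Cy5 intensity of non-control spots was between 93.8 and 113 and the median Cy3 intensity between 108 and 142, and from 71.9% to 75.1% of probes were well above background in Cy5 by the flag of the scanner software. Negative control spots, which should bind no transcript, had a median of 72.6, 74.1 and 57.3 in Cy5 and of 119, 121 and 91.8 in Cy3 on replicates 1, 2 and 3, while the median local background was only 39 to 43. The log2 ratios of all probes correlated between arrays with a Pearson r of 0.923 to 0.952, across probes that are not independent replicates. Nothing in the labels says that the arrays hold separate cultures, so p-values measure the spread between these 3 samples, which may be technical. Precision is limited by there being 3 arrays.

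The label of epithelial cells was checked against marker genes. All 7 probes of the luminal list (Krt7, Krt8, Krt18, Krt19 and Cdh1) were well above background in Cy5 on all 3 arrays, and 6 were higher than in the reference RNA, among them Cdh1 with a log2 ratio of 4.29, Krt18 with 1.40 and the 2 probes of Krt8 with 1.40 and 1.12. Krt19 was lower, at -2.62. Of 11 basal probes 1 was higher, that of Krt14 at 2.08, and 2 were lower, both of Acta2, at -2.01 and -2.80. The first of these Acta2 probes was well above background in Cy5 on 1 of the 3 arrays. The other Acta2 probes were not called. Among them was the brightest Acta2 probe in Cy5, at 0.60, which was called higher at 2.03 under median centring, so no direction is given for Acta2. Krt5 had a ratio of -0.11 that was not called. Of 12 fibroblast probes 6 were lower and 0 higher, with Vim at -6.51 and Col1a1 at -5.03 for the lower of its called probes. The Pecam1 probe of endothelium had a ratio of 0.01 and was well above background in Cy5 on 1 of the 3 arrays, and the lowest of the 3 Ptprc probes of blood cells was not well above background in Cy5 on any array. The 2 probes of the progesterone receptor gene Pgr were each well above background in Cy5 on 1 of the 3 arrays, and whether they match the part of the gene held by the transfected plasmid is not given in the sources used here.

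A probe was called when EpH4-PR and the reference differed by a log2 ratio of at least 1 in either direction with an adjusted p under 0.05 from limma with Benjamini-Hochberg adjustment over all 41171 probes tested. By this rule 2 of the 14 surface marker probes were higher than in the reference RNA, those of Mal2 and Epcam, against 2.26% of all probes tested. A further 3 were lower, probe A_52_P479249 of Thy1, 1 of the 3 probes of Cd44 and the probe of Procr, against 3.83% of all probes tested. The median log2 ratio was -0.11 over the 14 probes and -0.01 over all probes tested, so the surface markers lay to both sides of the reference. In either direction 5 of 14 were called, against 6.1% of all probes tested. Loess sets each ratio against probes of like brightness on the same array, so a bright probe can have a ratio below 0 although its raw Cy5 signal is above its Cy3 signal. All 14 probes entered the fit, since no filter on low values was used, but 9 of them were well above background in Cy5 and Cy3 alike on all 3 arrays. This flag also passed signals near the negative control spots, such as that of Mal2 in the reference channel. Between arrays, surface marker probes had a median SD of 0.10 (range 0.013 to 0.27) against 0.09 for all 25728 probes that were well above background in Cy5 and Cy3.

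**Figure D1:**
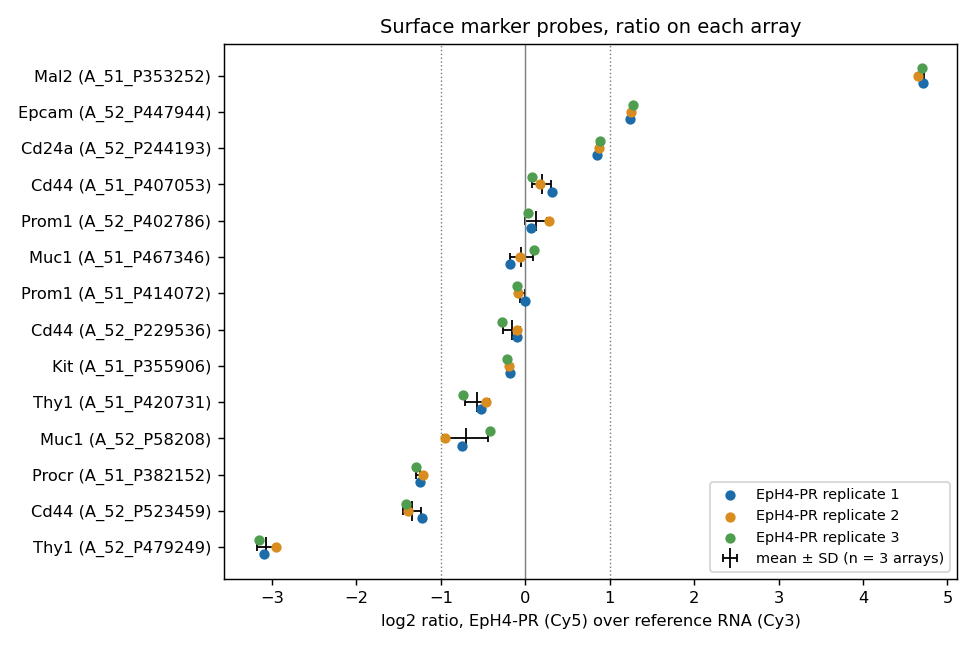
Log2 ratio, EpH4-PR (Cy5) over reference (Cy3), for the 14 surface marker probes, with 1 point per array and the mean ± SD of the 3 arrays; the solid line marks equal signal and the dotted lines a log2 ratio of 1 either way. Mal2 at 4.69 and Epcam at 1.26 lie beyond the upper dotted line, and Thy1 at -3.07, a Cd44 probe at -1.34 and Procr at -1.25 lie beyond the lower one.

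Mal2 had the highest log2 ratio of all probes tested after loess with normexp offset 50, over a reference signal at the level of the negative controls. Its probe, A_51_P353252, read 5310, 4248 and 5059 in the EpH4-PR channel on replicates 1, 2 and 3, and 129, 119 and 104 in the reference channel. The EpH4-PR signal was thus far above the negative control spots on every array, while the reference signal lay close to them, and on replicate 2 it was below their median of 121. The log2 ratios were 4.72, 4.65 and 4.70, with a mean of 4.69 ± 0.034 (SD, n = 3), a standard error of 0.043 and a limma adjusted p of 1.16e-05. The size of this ratio is not fixed by the data, since it corresponds to 25.8 times the reference here and moved with the way background was removed, to 6.17 with normexp offset 0 and to 6.57, or 95.0 times the reference, by the log ratio of the scanner software. The probe was called under every alternative tried.

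Epcam followed at a lower ratio but with strong signal in both channels. Its probe, A_52_P447944, read 3057, 2718 and 3081 in EpH4-PR RNA and 508, 470 and 487 in the reference RNA. The log2 ratios of 1.24, 1.26 and 1.28 were close to each other, and the mean was 1.26 ± 0.017 (SD, n = 3), a standard error of 0.041 and a limma adjusted p of 3.58e-05. This is a level 2.39 times that of the reference. The value was 1.35 by the log ratio of the scanner software and 2.56 when arrays were centred on their median in place of loess.

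Muc1 had 2 probes, both dim. Probe A_51_P467346 read 119, 126 and 98.5 in EpH4-PR RNA and 154, 148 and 105 in the reference RNA, and its log2 ratios of -0.18, -0.06 and 0.10 lay on both sides of 0 (mean -0.05 ± 0.14, SD, n = 3; limma adjusted p of 0.587). Probe A_52_P58208 read 86.5, 83.4 and 60.6 in EpH4-PR RNA, the last of these not well above background, and 162, 169 and 103 in the reference RNA. Its ratios were below 0 on all 3 arrays, at -0.75, -0.96 and -0.42 (mean -0.71 ± 0.27, SD, n = 3; limma adjusted p of 0.00460), and did not reach the limit of 1. That probe did pass the limit with normexp offset 0, at -1.71, and by the log ratio of the scanner software, at -2.35. The apical mucin was therefore measured close to background here, and its probes gave no common ratio.

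Prom1 was also measured near background. Probe A_51_P414072 was not well above background in either channel on any array, with 75.9, 72.6 and 58.0 in EpH4-PR RNA, and no ratio is read from it. Probe A_52_P402786 was well above background on all 3 arrays in EpH4-PR RNA (94.7, 104 and 67.6) and on 2 of 3 in the reference RNA (125, 122 and 92.3). Its log2 ratios were 0.07, 0.28 and 0.04, a mean of 0.13 ± 0.13 (SD, n = 3) with a limma adjusted p of 0.144, and the mean became -0.07 under median centring and 0.78 by the log ratio of the scanner software. A difference of Prom1 from the reference RNA was not detectable at this signal.

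**Figure D2:**
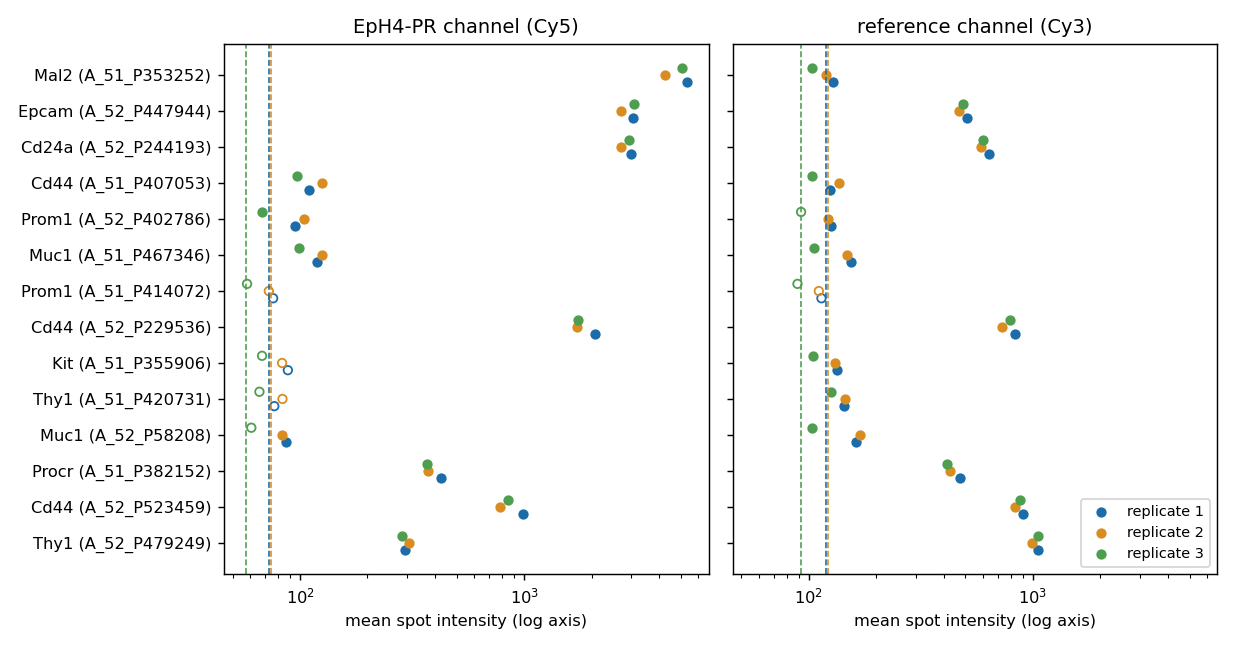
Mean spot intensity on a log axis for the 14 surface marker probes in the EpH4-PR channel and the reference channel, with 1 point per array; filled points were well above background and open points were not, and dashed lines give the median negative control spot of each array. Epcam and Cd24a stand well clear of the dashed lines in both channels, Mal2 in the EpH4-PR channel alone, and the probes of Kit and Prom1 lie near the lines in both.

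Cd24a was close to Epcam in its pattern. Its probe, A_52_P244193, read 3011, 2697 and 2940 in EpH4-PR RNA and 635, 586 and 598 in the reference RNA. The log2 ratios were 0.85, 0.87 and 0.88, with a mean of 0.87 ± 0.013 (SD, n = 3), a standard error of 0.041 and a limma adjusted p of 8.73e-05. The level was 1.83 times that of the reference RNA, above it on all 3 arrays and yet under the limit of 1 log2 unit. Under median centring the ratio was 2.19 and the probe was called.

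Cd44 had 3 probes, and these disagreed. Probe A_52_P523459, which represents the cDNA AK028981, read 991, 777 and 852 in EpH4-PR RNA and 900, 832 and 880 in the reference RNA, and its log2 ratios were -1.22, -1.39 and -1.41 (mean -1.34 ± 0.11, SD, n = 3, with standard error 0.057 and a limma adjusted p of 6.56e-05). Probe A_52_P229536, for the cDNA AK045226, read 2070, 1726 and 1743 in EpH4-PR RNA and 834, 729 and 792 in the reference RNA, with log2 ratios of -0.10, -0.10 and -0.28 (mean -0.16 ± 0.10, SD, n = 3; limma adjusted p of 0.0642). The lowest of these ratios was above the highest of the first probe, so the gap between the probes exceeded the spread between arrays.

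The last Cd44 probe, A_51_P407053, is the one that carries the RefSeq accession NM_009851, and it was dim in both channels, with 110, 126 and 97.1 in EpH4-PR RNA and 125, 136 and 104 in the reference RNA. Its log2 ratios were 0.32, 0.18 and 0.09 (mean 0.19 ± 0.12, SD, n = 3; limma adjusted p of 0.0455). From the highest to the lowest Cd44 probe the ratios spanned 1.53 log2 units. Of 5278 genes with at least 2 probes well above background in both channels, 3.41% spanned as much or more, and the median span was 0.39. Which transcripts of Cd44 each probe detects was not tested, since no probe sequences were used here. The values of both cDNA probes also depended on scaling, and under median centring that of AK045226 turned to 1.15 while that of AK028981 kept its sign but lost its call, at -0.10, so no direction is given for Cd44 as a gene.

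**Figure D3:**
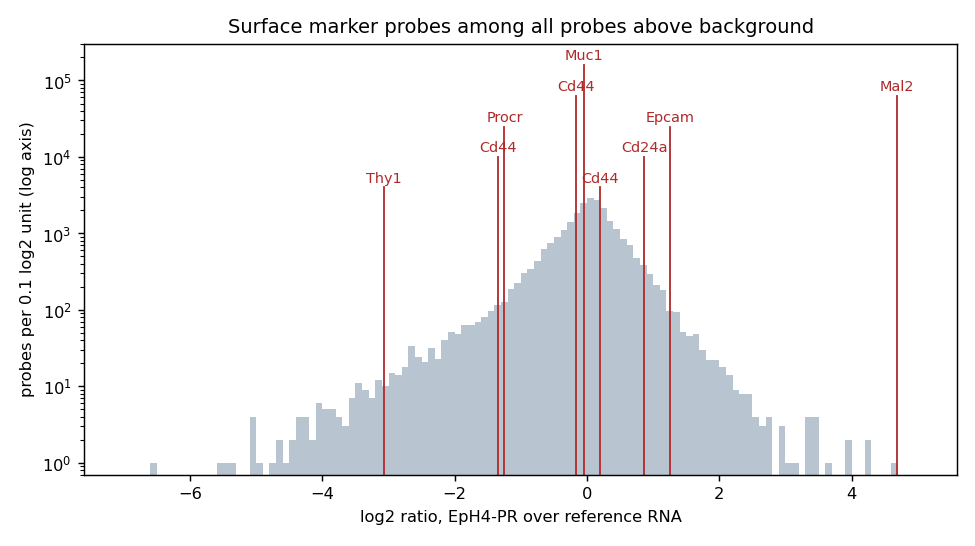
Histogram of log2 ratios, EpH4-PR over reference, for 25728 probes that were well above background in Cy5 and Cy3 on all 3 arrays, with the number of probes per bin on a log axis and red lines for the 9 surface marker probes among them. Mal2 lies at the upper end of all probes, Epcam and Cd24a in the upper tail, Thy1 in the lower tail, and the 3 Cd44 probes at separate places.

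Thy1 had the lowest ratio among the surface markers. Its bright probe, A_52_P479249, read 295, 305 and 285 in EpH4-PR RNA and 1053, 993 and 1053 in the reference RNA. The log2 ratios were -3.10, -2.95 and -3.16, with a mean of -3.07 ± 0.11 (SD, n = 3), a standard error of 0.056 and a limma adjusted p of 1.44e-05. The ratio corresponds to 8.39-fold less than in the reference RNA. It was called lower under every alternative tried, at -1.94 under median centring and at -3.45 by the log ratio of the scanner software.

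The other Thy1 probe, A_51_P420731, has the same RefSeq accession but was not well above background in EpH4-PR RNA on any array (76.8, 83.5 and 65.9), while the reference RNA gave 143, 145 and 126. Its log2 ratios were -0.53, -0.46 and -0.73 (mean -0.58 ± 0.14, SD, n = 3; limma adjusted p of 0.00166), which did not reach the limit of 1. The fitted ratio is 1.49-fold, or 1.41-fold without replicate 3, and with a Cy5 signal not well above background it is not a measured size. Both Thy1 probes therefore lay on the same side of the reference, with a much smaller ratio for the dim one.

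Kit was not well above background in EpH4-PR RNA on any array. Its probe, A_51_P355906, read 88.3, 83.2 and 67.7 there, against negative controls of 72.6, 74.1 and 57.3, and 134, 131 and 105 in the reference RNA. The log2 ratios were -0.18, -0.19 and -0.22 (limma adjusted p of 0.0141), and the adjusted p was 0.102 with median spot signals and 0.243 with the log ratio of the scanner software, so no fold or direction is given for Kit. Expression of this luminal progenitor marker in EpH4-PR cells was thus not detectable by its single probe.

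Procr was lower than in the reference RNA, with signal clear of background in both channels. Its probe, A_51_P382152, read 424, 373 and 369 in EpH4-PR RNA and 475, 425 and 415 in the reference RNA. The log2 ratios were -1.24, -1.21 and -1.29, with a mean of -1.25 ± 0.042 (SD, n = 3), a standard error of 0.044 and a limma adjusted p of 4.18e-05. This is 2.38-fold less than in the reference. Under median centring the ratio was -0.22 and the call was lost. Procr was well above background in EpH4-PR RNA on all 3 arrays.

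EpH4-PR is a cell line and not a tissue. In ratios to a bulk reference RNA, the share of a cell type and the RNA per cell cannot be told apart. Thy1 and Procr, which also mark stromal and endothelial cells, were lower beside a fibroblast list whose 12 probes had a median log2 ratio of -1.21 (range -6.51 to -0.09) and an endothelial list whose 8 probes had a median of -0.06 (range -0.52 to 0.21) with 0 called by limma. At an unadjusted p under 0.05 limma put 1 endothelial probe higher and 2 lower, and the methods' t-test 0 and 1. Of these lists, 8 fibroblast and 2 endothelial probes were well above background in Cy5 on all 3 arrays. Thy1 is also a marker of neurons and T cells, and of 6 neuronal probes limma called 0 (1 higher and 1 lower at an unadjusted p under 0.05, and 0 by the methods' t-test), while 2 of 9 blood cell probes, both of Ptprc, were lower and 0 higher. The neuronal probe of Nefl was called lower at -1.02 with normexp offset 0. What the reference RNA was pooled from is not given in the sources used here, and its part in these ratios was not tested.

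Genes that act with the surface markers were taken from lists of 87 genes, all with a probe. Of their 154 probes, 9 (5.84%) were higher and 15 (9.74%) lower than in the reference RNA. The shares over all probes tested were 2.26% higher and 3.83% lower, and these are the background for each list below. Among 9 partners and relatives of EpCAM, Cldn7, a tight junction claudin that binds EpCAM, had a log2 ratio of 2.90 ± 0.08 (SD, n = 3). The tetraspanin Cd82 was lower at -1.17, or -0.23 and not called under median centring. Of the 14 probes in that list 11 were not called, and its median was 0.18.

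Among the relatives and partners of MAL2 and other raft proteins, 4 of 26 probes were higher and 1 lower, with a median of 0.21. The higher ones were Tpd52l1 (1.94 ± 0.09), Cmtm8 (1.52 ± 0.17), Mal (1.41 ± 0.11) and Tpd52 (1.35 ± 0.08, SD, n = 3 for each), of which the Tpd52 family binds MAL2 and Mal is a relative of it. Tpd52 was outside the rule for named genes and was added after its value was seen. The second probes of Mal and Tpd52 had ratios of 0.82 and 0.78 that were not called. Cav1, the main protein of caveolae, was lower at -1.37 by 1 of its 2 probes, which became 0.06 under median centring, and stood at -0.02 by the other.

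Of the hyaluronan and CD44 network, 2 of 31 probes were higher and 4 lower, and the median was -0.02. Esrp1, an epithelial splicing regulator that controls the variable exons of Cd44, had a log2 ratio of 1.93 ± 0.05 and Ezr, which links CD44 to the cortical actin, had one of 1.37 ± 0.07 (SD, n = 3 for each). The secreted CD44 ligand Spp1 was lower at -2.21 ± 0.023 and the hyaluronan synthase Has2 was lower at -1.57 ± 0.23 (SD, n = 3 for each), and neither was called under median centring (-0.57 and -0.75). The other lower probes were those of the proteoglycans Srgn (-3.22) and Vcan (-1.11), each well above background in Cy5 on 2 of the 3 arrays, which kept their calls under normexp offset 0, the log ratio of the scanner software and median centring. They were outside the rule for named genes and were added after their values were seen, and the other 4 Vcan probes were not called. A second probe of Esrp1 was not well above background in either channel on any array.

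Around THY1 and KIT, 1 probe was higher and 5 were lower. Of 10 probes for GPI-anchored proteins, Nt5e (CD73) was higher at 1.34 ± 0.09, and Prnp at -2.52 ± 0.06, Cd14 at -1.72 ± 0.07 and Ly6a (Sca-1) at -1.34 ± 0.05 were lower (SD, n = 3 for each). Of 9 probes for the ligand of KIT and for related receptor kinases, Pdgfra at -3.34 ± 0.031 and Pdgfrb at -1.37 ± 0.05 (SD, n = 3 for each), both known from mesenchymal cells, were lower and 0 were higher. Under median centring Cd14, Ly6a and Pdgfrb were not called, the last at -0.42, and Ly6e was called higher at 1.87, so that the excess of lower over higher calls depended on scaling. Pdgfra is also on the fibroblast list, and its second probe stood at -0.09, as that of Nt5e did at 0.26, both not called. The 2 probes of the KIT ligand Kitl disagreed, at 0.19 and -0.95, and neither was called.

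In the protein C pathway, 3 of 15 probes were lower and 0 higher, with a median of -0.56. These were F2r, the thrombin receptor PAR1, at -3.85 ± 0.09, Thbd (thrombomodulin), which activates protein C together with PROCR, at -3.30 ± 0.09, and the cofactor Pros1 at -1.19 ± 0.15 (SD, n = 3 for each). The called probe of Pros1 lost its call under median centring, at -0.79, and a second one stood at -0.29 and was not called. Proc itself had a ratio of 0.17 that was not called. Of 29 probes for other mammary stem and progenitor surface markers, 3 were lower, Cd14, Ly6a and Itga6 (CD49f) at -1.23 ± 0.09, and 0 were higher. None of these lower probes was called under median centring. Probes of Lrig1 (1.66), Itgb3 (1.46) and Lrp5 (1.38) were called higher there, so the direction of calls in this list depended on scaling. A second probe of Itga6 stood at -0.51 and was not called. Both probes of Lgr5 were not well above background in Cy5 on any array.

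Of 22 probes for the other mucins, 0 were called in either direction by limma, since none reached a log2 ratio of 1. At an unadjusted p under 0.05 limma put 3 higher and 4 lower, the methods' t-test put 3 and 6 there, and 10 were not well above background in Cy5 on any array. Their log2 ratios ran from -0.62 to 0.46. The highest was that of a Muc16 probe, which was well above background on all 3 arrays in EpH4-PR RNA and on none in the reference RNA. The other Muc16 probe went the other way, at -0.22, and was well above background on all 3 arrays in the reference RNA and on none in EpH4-PR RNA. It was called lower at -1.12 by the log ratio of the scanner software. Calls on the higher side also appeared, for the Muc16 probe with the highest ratio, A_51_P178131. Its ratio became 2.17 when the normexp offset was 0, and the scanner software's own log ratio put it at 1.56. A Muc3 probe was called lower at -1.28 with normexp offset 0. The absence of mucin calls in either direction therefore depended on how background was removed.

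**Figure D4:**
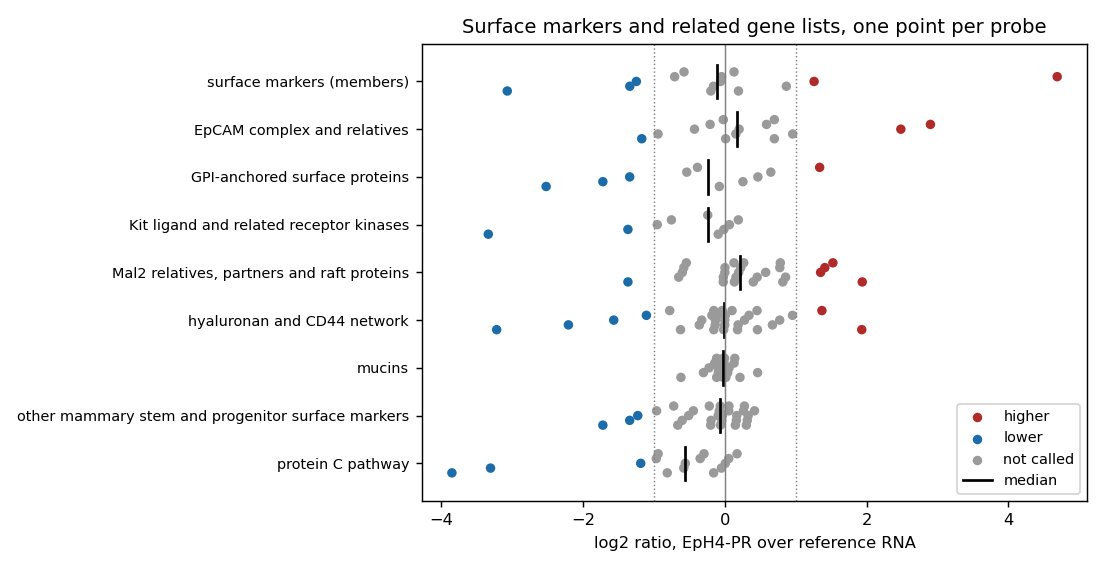
Log2 ratio, EpH4-PR over reference, with 1 point per probe, for the surface markers and 8 related gene lists; red points were called higher, blue points lower, grey points were not called, and black bars are medians. Higher calls lie among the surface markers, the relatives of EpCAM and MAL2, the CD44 network and the GPI-anchored proteins, and mucin probes lie between -0.62 and 0.46.

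RefSeq promoter windows were available for 6 of the 9 genes (not for Mal2, Cd24a and Thy1). The bases before the start site of Epcam, called higher, and of Procr and Cd44, each with a probe called lower, are printed from the GRCm38.p6 table, 250 bases each, with capitals for matches to 4 motifs searched on both strands. The motifs were the E2-box CACCTG, which Snail and Zeb repressors bind, the GC box GGGCGG, the core TGTTCT of progesterone response elements and the TATA box TATAAA. None of these motifs overlapped another in the windows shown.
Epcam, chr17:87635729-87635978, plus strand: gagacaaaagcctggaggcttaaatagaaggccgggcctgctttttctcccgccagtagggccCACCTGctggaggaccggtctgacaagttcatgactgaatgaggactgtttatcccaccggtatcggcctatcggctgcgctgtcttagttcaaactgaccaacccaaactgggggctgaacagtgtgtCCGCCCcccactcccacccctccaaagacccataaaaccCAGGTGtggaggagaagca
Procr, chr2:155750967-155751216, plus strand: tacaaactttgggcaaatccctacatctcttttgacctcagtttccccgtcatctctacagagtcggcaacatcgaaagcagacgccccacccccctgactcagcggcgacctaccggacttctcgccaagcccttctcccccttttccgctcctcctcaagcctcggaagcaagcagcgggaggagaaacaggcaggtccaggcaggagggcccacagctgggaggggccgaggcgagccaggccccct
Cd44, chr2:102901666-102901915, minus strand: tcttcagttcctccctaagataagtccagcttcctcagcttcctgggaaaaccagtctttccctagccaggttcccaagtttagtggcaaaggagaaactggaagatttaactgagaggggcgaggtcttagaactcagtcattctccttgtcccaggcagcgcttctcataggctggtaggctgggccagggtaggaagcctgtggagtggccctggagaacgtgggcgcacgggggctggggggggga
The Epcam window held 2 E2-boxes, at -187 to -182 and -19 to -14 from the start site, and 1 GC box at -58 to -53. The windows of Procr and Cd44 held none of the 4 motifs. The start site used for Epcam is an end of the gene in RefSeq, while those used for Procr and Cd44 are not. The Muc1 window also held 2 E2-boxes, with 2 GC boxes and a TATA box at -31 to -26. Among 32851 promoter windows of the same length, 17.2% held an E2-box, 32.7% a GC box, 16.1% the TGTTCT core and 12.4% a TATA box. The TGTTCT core was found in 1 of the 8 windows of these genes, the downstream one of Prom1. The 8 windows include 2 of Kit that overlap almost fully, so they are not 8 separate promoters. These matches are descriptions of the windows, and binding was not measured.

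The order of the ratios was the same at both ends under each way of processing, with Mal2 highest and Epcam next, while the lowest probe was the bright Thy1 probe. In between, the order changed. Under median centring Epcam rose to 2.56, Cd24a to 2.19 and the AK045226 probe of Cd44 to 1.15. With the log ratio of the scanner software, the dim probe of Thy1 and probe A_52_P58208 of Muc1 moved to -2.29 and -2.35 and Epcam stayed at 1.35. No single array decided a call, and with each array left out in turn 2 probes were higher and 3 lower.

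**Figure D5:**
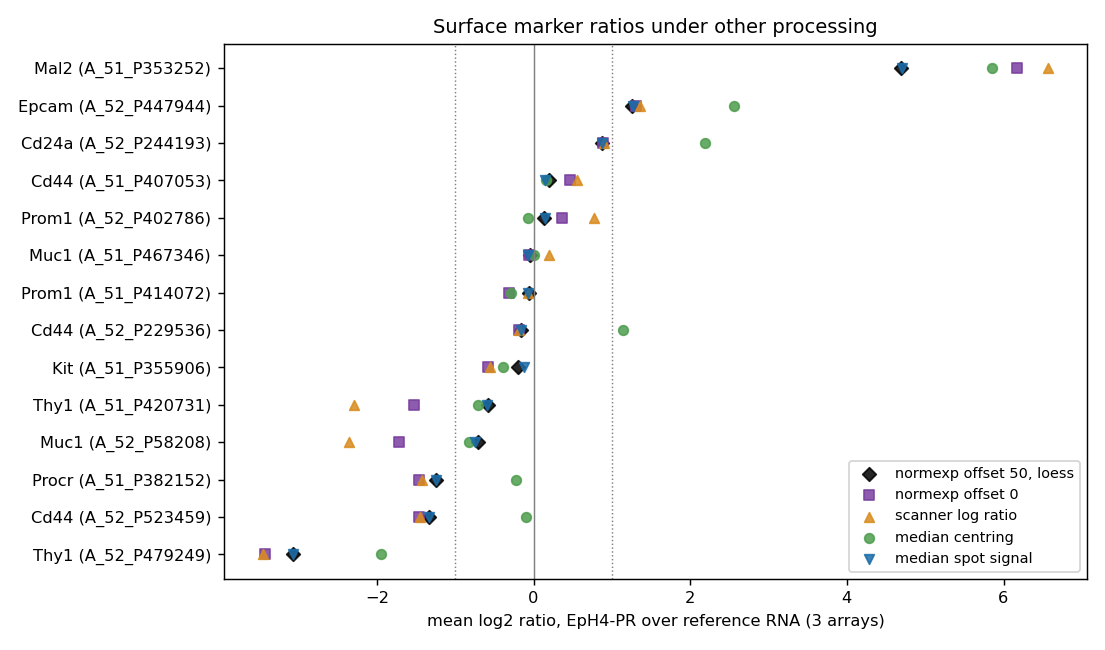
Mean log2 ratio, EpH4-PR over reference, across 3 arrays for the 14 surface marker probes under 5 ways of processing. Green circles (median centring) lie to the right of the black diamonds for bright probes such as Cd24a, at 2.19 against 0.87, and orange triangles (the log ratio of the scanner software) lie to the left for the dim probe of Thy1 and for probe A_52_P58208 of Muc1.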

How the data were processed

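RNA of EpH4-PR cells was hybridised with Cy5 against reference RNA with Cy3 on 3 arrays, 1 array per slide. The authors deposited the output of Agilent Feature Extraction 8.1.1.1, which gives for each spot an intensity and a local background intensity in both channels, a processed intensity and the log10 of Cy5 over Cy3. The authors' deposited table of fold changes, ratios and p-values between 2 unnamed sides was not used. Mean spot intensities were corrected by normexp (offset 50) and normalized by loess within arrays in R 4.3.3 with limma 3.58.1. Control spots and outlier spots (150, 18 and 3) were left out, spots of a probe were averaged, and probes of a gene were kept apart. Each log2 ratio was compared with 0 by lmFit and eBayes. The same fit was also run on simulated data whose SDs were taken from the fit to these arrays. RefSeq accessions named 21445 of the 23705 probes that carry one, and other probes kept the file's name. The text names every member probe, up to 4 called probes per list with the largest ratios that were well above background throughout, and defining markers. The members, lists and tests were chosen with earlier results of these data known. Alternatives covered background, normalization, spot summary, outliers, dim probes, the variance model, the methods' t-test and each array left out. The result of 1 gene on the wider lists is not reported here.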

Additional observations from a re-analysis of the deposited data

How the results depend on the processing

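The number of surface marker probes called higher than in the reference RNA (2) was 4 under median centring, with Cd24a and the AK045226 probe of Cd44 added, and 2 under every other alternative. The number called lower (3) was 5 with normexp offset 0, 5 with the log ratio of the scanner software and 1 under median centring. For all probes, 932 were higher and 1578 lower, against 3125 and 3905 with normexp offset 0, 3616 and 3887 with the log ratio of the scanner software and 7031 and 708 under median centring, so that the share of calls on the higher side moved from 37.1% to 44.5%, 48.2% and 90.9%. For the wider lists, 9 probes were higher and 15 lower, against 15 and 30, 18 and 29, and 36 and 7 in the same order. Among single probes, A_51_P467346 of Muc1 changed sign to 0.19 with the log ratio of the scanner software, to 0.012 under median centring and to 0.020 without replicate 1 (range -0.12 to 0.020 over the arrays left out), A_52_P402786 of Prom1 to -0.072 under median centring, and A_52_P229536 of Cd44 to 1.15 under median centring. With each array left out in turn, all probes gave 931 to 951 higher and 1580 to 1601 lower calls. The cause of these changes was not tested. No paired analysis was possible because there is 1 group of arrays. The probes with signal near the negative control spots were both of Muc1, both of Prom1, Kit, 1 of Thy1, 1 of Cd44, and Mal2 in the reference channel. How far background or the spread between arrays limits their ratios was not tested.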
